A study of Mus musculus with 8 samples.

Results

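The brakes of the adult cardiomyocyte cell cycle were examined as 10 genes out of the 37991 in the deposited table: the CDK inhibitor genes Cdkn1a, Cdkn1b, Cdkn1c, Cdkn2c and Cdkn2d, the pocket protein genes Rb1, Rbl1 and Rbl2, the homeobox gene Meis1 and the kinase gene Wee1. They were chosen by name and matched by Ensembl identifier. A row was matched for 9 of the 10, and all 9 passed the filter on low counts that left 12466 genes to test. Cdkn2d was not analysed here. RNA was sequenced from isolated adult mouse cardiomyocytes, the beating muscle cells of the heart, of the background alpha-MHC MERCREMER MADM. In such mice the alpha myosin heavy chain promoter restricts a tamoxifen-activated Cre to cardiomyocytes, and MADM (mosaic analysis with double markers) reports Cre recombination between homologous chromosomes with 2 fluorescent colors. A cell that recombines and then divides can give daughters of a single color, and a cell that recombines without dividing can carry both. All hearts received adenoviruses carrying 4 cell cycle genes, called 4F in the labels, and cells were collected 2 weeks later. The groups are single colored cells (4 libraries), labelled as cells that completed a cycle, and double colored cells (4 libraries), labelled as given 4F but not having cycled. No library of uninjected hearts is compared, so both groups share the virus and the Cre. By the design of MADM a divided cell can also keep both colors, depending on how the chromatids segregate, and the color alone does not date a division relative to the injection. The age and sex of the mice were not given in the sources used here.

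A cell enters S phase when cyclin-dependent kinases (CDKs) phosphorylate the pocket proteins, which then release E2F transcription factors. CDK inhibitors of the Cip/Kip family (Cdkn1a, Cdkn1b, Cdkn1c) bind cyclin-CDK complexes, those of the INK4 family (Cdkn2c, Cdkn2d) bind the CDKs that partner D-type cyclins, and Wee1 holds back mitosis by phosphorylating CDK1 on tyrosine. In the mouse heart Meis1 is known as a regulator of the postnatal withdrawal of cardiomyocytes from the cell cycle and as an activator of CDK inhibitor genes.

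Promoter sequence is shown for the pocket protein genes Rbl1 and Rbl2 and for Cdkn1a, because Rbl1 lay farther from no difference than any other member, Rbl2 is its nearest relative, and Cdkn1a was the most abundant member per length. The RefSeq table on GRCm38.p6 had a promoter entry for 7 of the 10 genes, and each line gives the bases just before an annotated start, 5′ to 3′ on the gene's strand. Capitals mark matches to TTTNNCGC, an E2F-like motif, in Rbl1 (chr2:157204535-157204684, minus strand), to TTTGAA, the cell cycle homology region (CHR), read on the opposite strand in Rbl2 (chr8:91069807-91070056, plus strand), and to a p53-like motif, 2 copies of CATG with 6 bases between them, in Cdkn1a (chr17:29090829-29090978, plus strand).
Rbl1: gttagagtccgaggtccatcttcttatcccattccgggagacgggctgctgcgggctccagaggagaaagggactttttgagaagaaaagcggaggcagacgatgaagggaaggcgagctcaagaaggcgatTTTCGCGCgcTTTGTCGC
Rbl2: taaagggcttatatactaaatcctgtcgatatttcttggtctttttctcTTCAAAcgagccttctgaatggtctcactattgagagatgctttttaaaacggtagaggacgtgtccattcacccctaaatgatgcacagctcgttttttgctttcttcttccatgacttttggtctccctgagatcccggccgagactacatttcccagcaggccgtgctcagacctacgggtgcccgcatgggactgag
Cdkn1a: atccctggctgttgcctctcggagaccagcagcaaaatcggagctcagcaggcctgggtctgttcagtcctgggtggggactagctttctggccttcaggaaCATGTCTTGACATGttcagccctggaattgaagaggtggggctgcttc
The E2F-like motif was found on either strand in 5.17% of 32851 RefSeq promoters of 300 bases and in 1 of the 7 genes with an entry. In Rbl1 it occurred 2 times, at −18 to −11 and at −8 to −1 from the start, without overlapping. The CHR motif was found in 17.9% of promoters and in 1 of the 7 genes, at −201 to −196 in Rbl2. The p53-like motif reads the same on both strands and was found in 0.712% of promoters and in 1 of the 7 genes. The match lay at −48 to −35 in the first of 2 Cdkn1a entries. This motif was chosen after its match had been seen, so the share cannot weigh that match. All shares here are over promoter entries, whereas a gene with 2 entries was counted once. A GC box, GGGCGG, was found in 35.7% of promoters and in 6 of the 7 genes. The MEIS-like motif TGACAG was found in 19.2% of promoters and in 1 of the 7 genes, at −120 to −115 in the second Cdkn2c entry. These matches describe the letters of the windows only, since binding was not measured.

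The libraries held 23820700 to 30082278 counted reads, of which mitochondrially encoded genes took 77.5% to 85.9% in single and 84.2% to 88.3% in double colored libraries. Nuclear genes therefore had 3503353 to 6112595 reads per library. The 10 cardiomyocyte markers (Myh6, Tnnt2, Ttn and others) summed to 14347 to 26284 CPM, the measure of reads scaled to library size, in single and 23050 to 30516 CPM in double colored libraries, so the labelled cell type's markers were abundant in all 8. The 12 lymphocyte markers summed to 17.0 to 34.7 CPM in single and 1.71 to 4.69 CPM in double colored libraries. The 12 macrophage and monocyte markers summed to 229 to 379 CPM and 124 to 165 CPM, and neither immune list overlapped between groups. The edgeR test called 8 of 9 tested lymphocyte markers higher (Cd3e, Cd3g, Cd3d, Cd4, Cd8a, Il7r, Nkg7, Cd2), 5 of 12 macrophage markers higher (Ctss, Itgam, Itgb2, Adgre1, Tyrobp) and 1 lower (Cd163), and none of the 10 cardiomyocyte markers, whose log2 fold changes were all negative with a median of −0.45. Of 9 fibroblast markers 1 was higher (Col1a1), and no endothelial, smooth muscle or erythrocyte marker was called. Over all tested genes 2.32% were called higher and 0.16% lower. With the replicate number as a block, edgeR called 2 of the 10 cardiomyocyte markers lower, and 8 macrophage markers higher and 1 lower. It also called 4 fibroblast markers higher and 1 lower, and 1 endothelial marker higher. Under the block 4.97% of all tested genes were called higher and 2.57% lower. No marker in the table was at 0 in all libraries. In such bulk libraries fewer cells of a type and less RNA per cell cannot be told apart. Whether replicates are separate animals is not said in the labels, and the p-values then measure only spread among these 8 libraries, possibly technical.

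None of the 9 measured brake genes passed an adjusted p under 0.05 between the groups (edgeR quasi-likelihood test, Benjamini-Hochberg over 12466 genes), where 2.48% of all tested genes did, 2.32% higher and 0.16% lower in single colored cells. Also, none had its 4 libraries of a group all above or all below those of the other group, which 9.14% of tested genes had. At an unadjusted p under 0.05, 1 of the 9 genes (Rbl1) passed, where 15.1% of tested genes did. DESeq2 and limma-voom called none of them either. The log2 fold changes of single over double colored cells were positive for 4 and negative for 5 of the genes, and their median was −0.16 against −0.01 over all tested genes. The intervals are wide for the low genes, and the values below bound each difference rather than show that levels were equal.

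**Figure D1:**
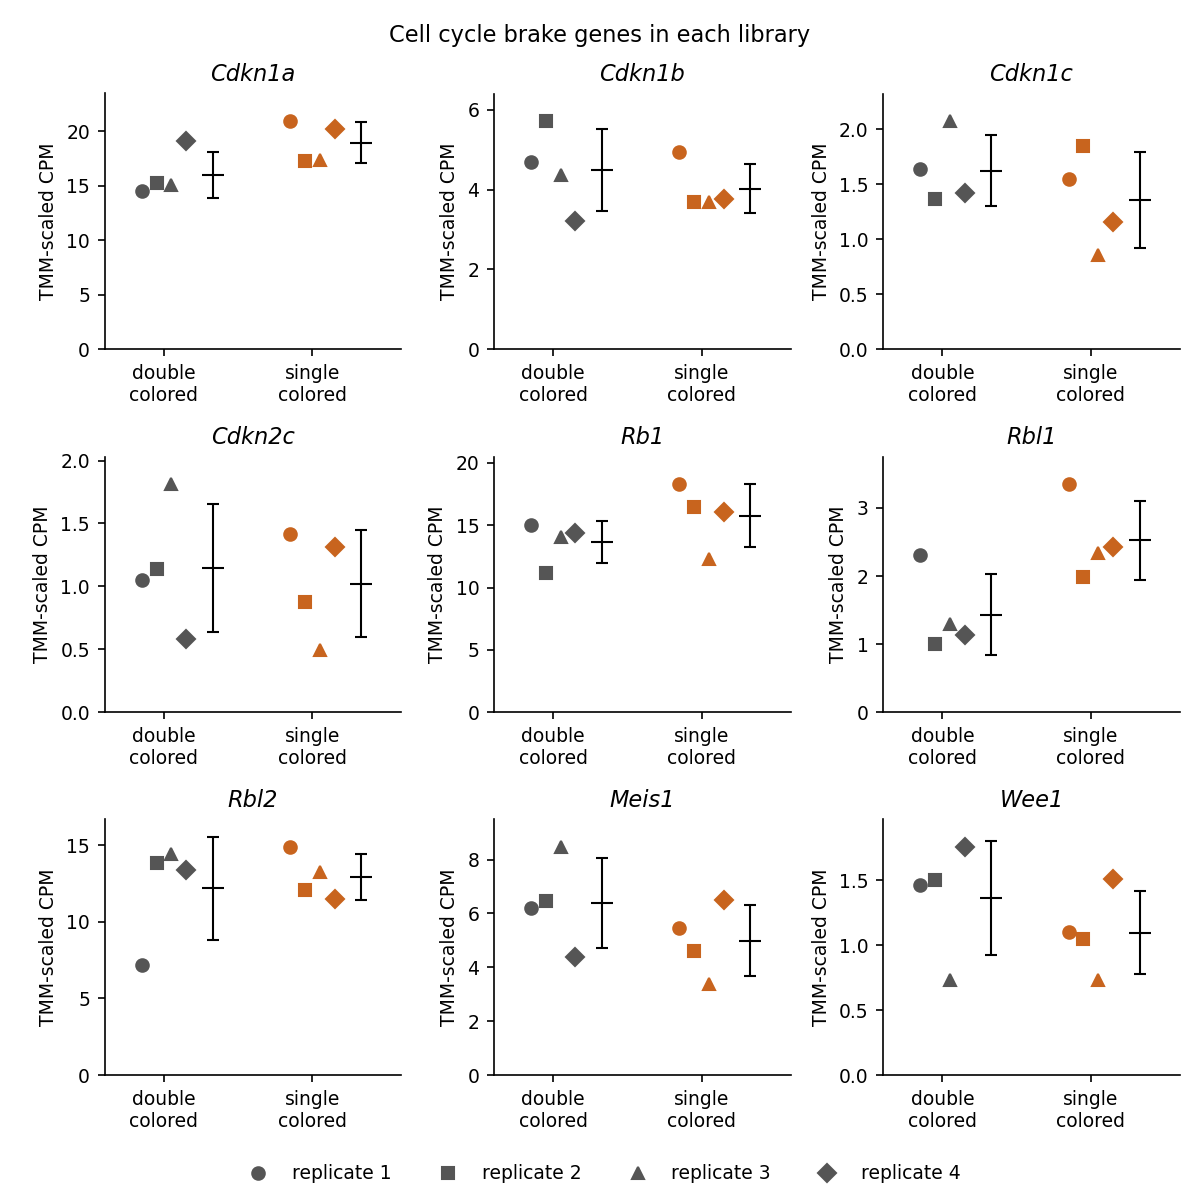
Level of each of the 9 measured genes, in CPM scaled by TMM factors, in 4 double colored (grey) and 4 single colored (orange) libraries, with the replicate number as the marker shape and the mean ± SD (n = 4) beside the points. The groups overlap in all 9 panels, and Rbl1 comes nearest to separating, with double colored replicate 1 (2.30 CPM) above single colored replicate 2 (1.99 CPM).

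Cdkn1a encodes p21, the CDK inhibitor best known as a p53 target. It was at 14.5, 15.2, 15.0 and 19.1 CPM in double colored replicates 1 to 4 and at 21.0, 17.3, 17.4 and 20.2 CPM in single colored replicates 1 to 4. Double colored replicate 4 lay within the single colored range and the other 3 double colored libraries below it. In each of the 4 numbered pairs the single colored library was the higher. The log2 fold change was 0.25 ± 0.15 (SE, 95% interval −0.06 to 0.56, edgeR adjusted p = 0.458), so a rise of more than 1.47-fold lay outside the interval. The Cdkn1a gene (ENSMUSG00000023067) spans bases 29227924 to 29237667 of chromosome 17 in mm9.

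Cdkn1b, which encodes p27, a CDK inhibitor of resting cells, was at 4.69, 5.73, 4.36 and 3.22 CPM in double and 4.95, 3.70, 3.69 and 3.77 CPM in single colored replicates 1 to 4. The double colored libraries spanned the whole single colored range. Its log2 fold change was −0.16 ± 0.22 (SE, 95% interval −0.63 to 0.31, edgeR adjusted p = 0.814). Cdkn1c, the imprinted gene of p57, was lower still, at 1.63, 1.36, 2.07 and 1.42 CPM in double and 1.55, 1.85, 0.859 and 1.15 CPM in single colored replicates 1 to 4. The highest library was a double colored one and the lowest a single colored one, with a log2 fold change of −0.27 ± 0.33 (SE, 95% interval −0.97 to 0.44, edgeR adjusted p = 0.786). Within each library the ratio of Cdkn1a to Cdkn1b reads per kilobase does not depend on library scaling. On the log2 scale it was 2.67, 2.44, 2.82 and 3.60 in double and 3.12, 3.26, 3.27 and 3.46 in single colored replicates 1 to 4. Cdkn1a was thus the higher per length in every library, the single colored values lay within the double colored range, and 3 of 4 pairs had the higher ratio in single colored cells.

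Of the INK4 genes, Cdkn2c, which encodes p18, rested on 14 to 54 reads per library. Its levels were 1.05, 1.14, 1.81 and 0.585 CPM in double and 1.41, 0.873, 0.494 and 1.31 CPM in single colored replicates 1 to 4. The spread within each group exceeded the difference between the means, and the log2 fold change was −0.17 ± 0.43 (SE, 95% interval −1.09 to 0.75, edgeR adjusted p = 0.913). Without replicate 3 of both groups it was 0.38, with its sign turned. Cdkn2a, the gene of p16 and p19ARF, had 1 read over all 8 libraries, and Cdkn2b also failed the filter on low counts. No other INK4 gene was therefore tested. Cdkn3, which is outside the INK4 family, failed the filter too.

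Among the pocket proteins, Rb1, the retinoblastoma gene, was at 15.0, 11.2, 14.0 and 14.4 CPM in double and 18.3, 16.5, 12.3 and 16.0 CPM in single colored replicates 1 to 4. Of the single colored libraries 3 lay above all double colored ones and replicate 3 lay among them. The log2 fold change was 0.21 ± 0.16 (SE, 95% interval −0.13 to 0.55, edgeR adjusted p = 0.607), and 0.12 when either double colored replicate 2 or single colored replicate 1 was left out. Exons of Lpar6 and Rcbtb2 on the opposite strand cover 14.9% of the Rb1 exon bases, and reads of the strands cannot be told apart, because whether strand was used in counting was not given in the sources used here.

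Rbl1 encodes p107, a pocket protein that is itself transcribed from an E2F-responsive promoter in cycling cells. It was among the lowest members per length, with 55, 22, 30 and 27 reads in double and 128, 57, 90 and 61 reads in single colored replicates 1 to 4. These correspond to 2.30, 1.00, 1.30 and 1.13 CPM in double and 3.35, 1.99, 2.34 and 2.42 CPM in single colored libraries. Double colored replicate 1 stood above the other 3 of its group and above single colored replicate 2, and the single colored library was the higher in 4 of 4 pairs. The means were 1.43 ± 0.593 CPM and 2.53 ± 0.583 CPM (SD, n = 4 each), a log2 fold change of 0.82 ± 0.32 (SE, 95% interval 0.14 to 1.50), or 1.76-fold (1.10 to 2.83). The edgeR p was 0.0216 before and 0.229 after adjustment over all genes, and 9.41% of tested genes had a smaller p. With the replicate number as a block, the log2 fold change was 0.86 ± 0.29 with an edgeR adjusted p of 0.0822. Leaving out double colored replicate 1 gave 1.14 (edgeR adjusted p = 0.0898), and leaving out single colored replicate 1 gave 0.64. With the macrophage and lymphocyte marker level as a covariate the estimate was −0.22 ± 0.83, an error so large that it bounds neither direction. Scaling by library totals alone gave 1.34 (edgeR adjusted p = 0.0197), but that scaling moved the median of all genes by 0.48, and relative to this median Rbl1 was at 0.85. In the authors' deposited table the log2 fold change, with the sign turned to single over double, was 0.81 with a p-value of 0.0446 and an FDR of 0.495. The gene (ENSMUSG00000027641) spans bases 156971629 to 157030270 of chromosome 2 in mm9.

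Rbl2 encodes p130, the pocket protein that predominates in resting cells. It was at 7.16, 13.8, 14.4 and 13.4 CPM in double and 14.9, 12.0, 13.3 and 11.5 CPM in single colored replicates 1 to 4. Double colored replicate 1 was the lowest of all 8, and the other 3 of its group lay within the single colored range. The log2 fold change was 0.09 ± 0.20 (SE, 95% interval −0.33 to 0.51, edgeR adjusted p = 0.900), and −0.10 without that library. Exons of Aktip on the opposite strand cover 9.95% of the Rbl2 exon bases. The within-library log2 ratio of Rbl1 to Rbl2 reads per kilobase was −1.42, −3.57, −3.26 and −3.35 in double and −1.93, −2.38, −2.29 and −2.03 in single colored replicates 1 to 4. In 3 of 4 pairs the ratio was higher in the single colored library. Double colored replicate 1, where Rbl1 was high for its group and Rbl2 low, lay above every other library and carried the overlap between the groups. That library also had the lowest cardiomyocyte marker sum of its group (23050 CPM), and the part of this in the ratio was not tested. Ttn weighs heavily in that sum, at 10773 CPM there against 14970 to 17496 CPM in the other double colored libraries. Myh6, Ryr2, Pln, Atp2a2 and Mb were also lowest of the group there. Actc1 was instead the highest, and Tnnt2, Tnni3 and Myl2 were next to the highest.

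**Figure D2:**
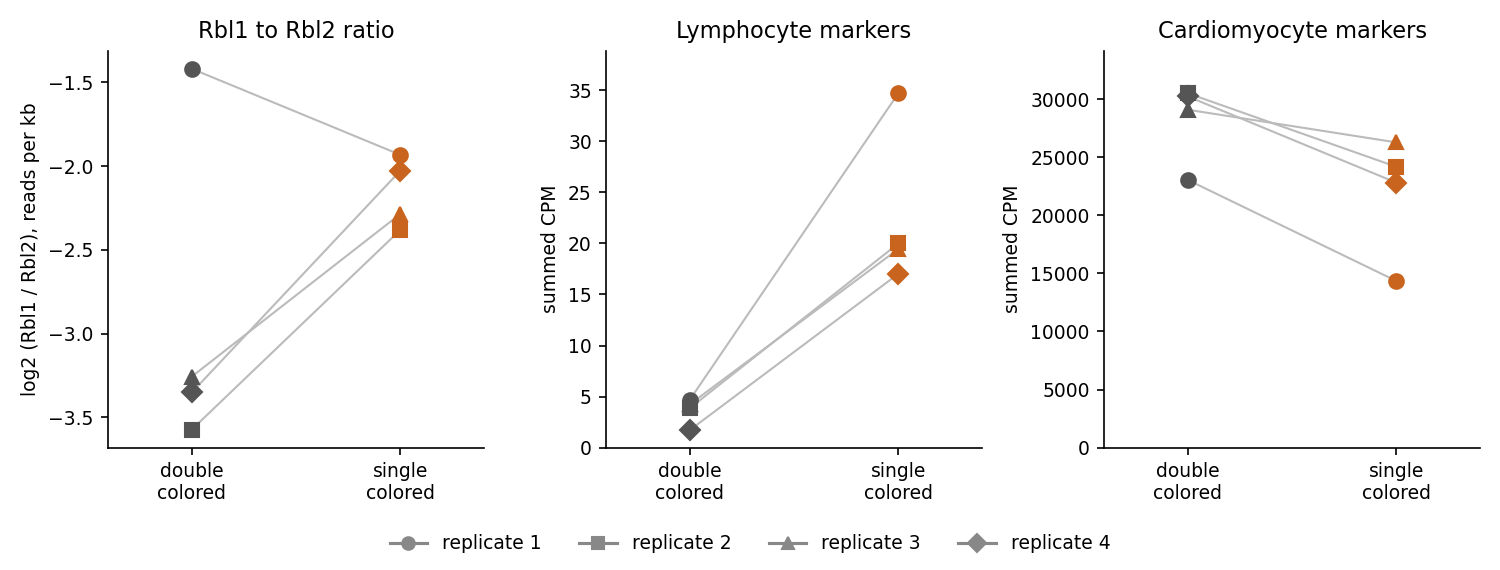
Log2 ratio of Rbl1 to Rbl2 reads per kilobase, and the summed CPM of lymphocyte and cardiomyocyte markers, in each library, with lines joining libraries of the same replicate number. The ratio is higher in the single colored library in pairs 2 to 4 and lower in pair 1, while lymphocyte markers are higher in the single colored library in each pair (17.0 to 34.7 against 1.71 to 4.69 CPM).

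Meis1 was at 6.20, 6.45, 8.47 and 4.39 CPM in double and 5.45, 4.61, 3.38 and 6.51 CPM in single colored replicates 1 to 4. Single colored replicate 4 lay above 3 of the double colored libraries, and in 3 of 4 pairs the single colored library was the lower. The means were 6.38 ± 1.67 CPM and 4.99 ± 1.32 CPM (SD, n = 4 each), with a log2 fold change of −0.36 ± 0.24 (SE, 95% interval −0.87 to 0.15, edgeR adjusted p = 0.528). It was −0.20 without double and −0.22 without single colored replicate 3, −0.042 without both, and −0.66 without both libraries of pair 4. The sign turned to 0.093 when libraries were scaled by totals alone, where Meis1 lay at −0.39 relative to the median of all genes. The Meis1 gene (ENSMUSG00000020160) spans bases 18780433 to 18918961 of chromosome 11 in mm9, and the opposite-strand gene Gm16140 covers 9.47% of its exon bases. Of 6 tested relatives and partners described in the Meis and Pbx family, none was called and none passed an unadjusted p under 0.05, and their median log2 fold change was −0.13. Meis2 (10.5 ± 2.39 CPM in double and 8.67 ± 1.41 CPM in single colored libraries, SD, n = 4) was at −0.28, Pknox2 at −0.24 and Pbx2, of the family of DNA-binding partners of Meis proteins, at 0.19 on the log2 scale. Hoxb13 and Pbx4 failed the filter on low counts.

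Wee1 was at 1.47, 1.50, 0.735 and 1.76 CPM in double and 1.10, 1.05, 0.729 and 1.51 CPM in single colored replicates 1 to 4. The single colored library was the lower in each of the 4 pairs, by a very small margin in pair 3, and the groups overlapped. The log2 fold change was −0.32 ± 0.37 (SE, 95% interval −1.12 to 0.47, edgeR adjusted p = 0.760). With 1 library left out it ran from −0.53 (without double colored replicate 3) to −0.18 (without single colored replicate 3 or double colored replicate 4). The 7 tested genes around the CDK1 tyrosine switch, which Wee1 closes and the Cdc25 phosphatases open, were all on the positive side (median log2 fold change 0.40), and none was called or passed an unadjusted p under 0.05. Ccnb1, the cyclin partner of CDK1, was at 0.343 ± 0.298 CPM in double and 0.878 ± 0.320 CPM in single colored libraries (SD, n = 4 each), or 1.35 on the log2 scale (edgeR adjusted p = 0.356). It had 17, 9, 0 and 6 reads in double colored replicates 1 to 4. The value was 0.94 without double colored replicate 3 and 1.99 without double colored replicate 1. Chek1, a checkpoint kinase that acts on Cdc25 proteins, was at 0.86 (0.40 without single colored replicate 1) and Cdc25b at 0.73 (0.41 without single colored replicate 3) on the log2 scale. The log2 ratio of Wee1 to Cdc25b reads per kilobase was 2.49, 3.18, 0.94 and 1.58 in double and 0.94, 1.15, −0.34 and 2.10 in single colored replicates 1 to 4. It was lower in the single colored library in 3 of 4 pairs, and the groups overlapped. The labels do not name the 4 injected genes, and reads from delivered copies of a gene cannot be told apart from those of the cell's own gene in these counts.

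**Figure D3:**
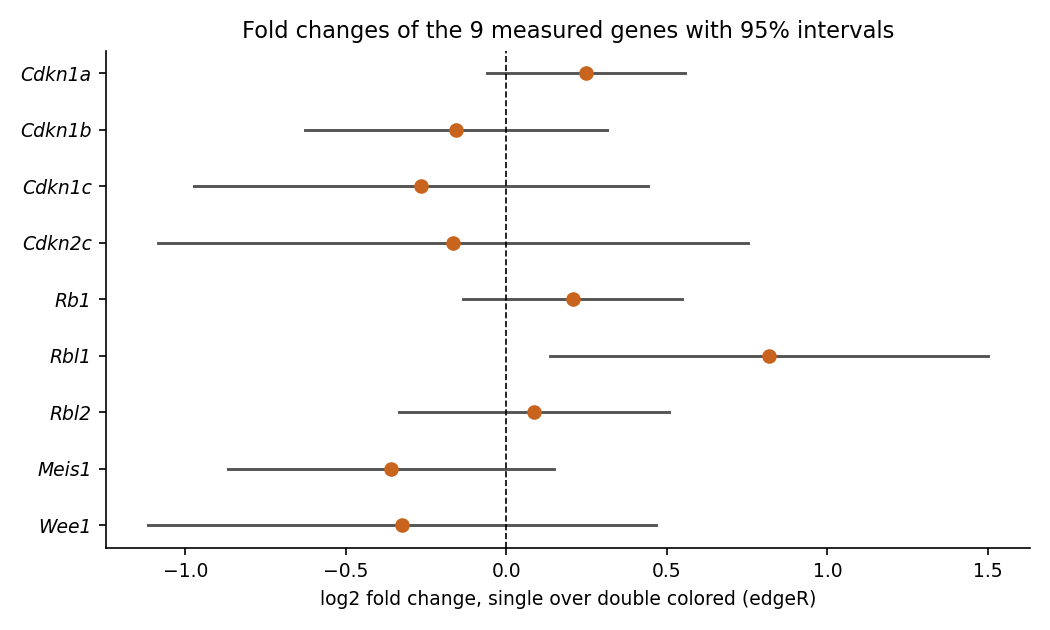
Log2 fold change of single over double colored cells for the 9 measured genes, with 95% intervals from the edgeR fit. The interval of Rbl1 (0.14 to 1.50) lies above 0 before adjustment for 12466 genes, and the other 8 intervals include 0.

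Per kilobase of exon, averaged over all 8 libraries, the level of Cdkn1a was 7.86 ± 1.10 CPM per kb (SD, n = 8), followed by Rb1 at 2.45 ± 0.382 and Rbl2 at 1.80 ± 0.352. Cdkn1b was at 0.937 ± 0.182, Cdkn1c at 0.770 ± 0.198, Wee1 at 0.634 ± 0.197, Meis1 at 0.600 ± 0.167, Cdkn2c at 0.404 ± 0.163 and Rbl1 at 0.330 ± 0.133 CPM per kb. Cdkn1a lay above Rb1 in 8 of 8 libraries, and both Rb1 over Rbl2 and Rbl2 over Cdkn1b held in 7 of 8. Meis1 lay above Cdkn2c in 8 of 8 libraries. The order within Cdkn1b, Cdkn1c, Wee1 and Meis1 and that of Cdkn2c and Rbl1 held in only 5 or 6 of 8 libraries for each neighbouring pair, so these neighbours do not differ beyond their spread. The order among low genes depends on the gene model: with GENCODE vM21 exon lengths Cdkn1a was at 4.92 and Wee1 at 0.360 CPM per kb.

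Library by library, Meis1 and Cdkn2c varied most alike among the 36 pairs of measured genes, with a mean absolute difference of 0.305 SD between their standardised log2 CPM over the 8 libraries, against a median of 1.03 SD over the pairs. Both were highest in double colored replicate 3 and lowest in the single colored replicate of that number. Rb1 and Rbl1 were the next pair, at 0.568 SD. The least alike were Cdkn1a and Meis1, at 1.43 SD. Among 4788 genes of at least 5 CPM, the patterns nearest to that of Meis1 were those of Sort1 (0.314 SD), Uap1 (0.367 SD) and Mbd2 (0.372 SD), against a median gene at 1.08 SD. Nearest to Cdkn1a were Plagl2 (0.266 SD), Trim21 (0.270 SD) and Nfatc1 (0.278 SD). Nearest to Rb1 were Fcho2 (0.291 SD), Litaf (0.300 SD) and Sat1 (0.327 SD). These likenesses describe the 8 libraries, which also differ in depth and in immune marker level.

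The E2F and DP transcription factors, some of which the pocket proteins hold, had 0 of 10 tested genes called. At an unadjusted p under 0.05, 1 was higher and 1 lower, where 9.02% of tested genes were higher and 6.1% lower. E2f3, an activating E2F, was at 4.19, 3.41, 3.85 and 2.34 CPM in double and 5.71, 5.30, 5.62 and 5.56 CPM in single colored replicates 1 to 4. Every single colored library lay above every double colored one, as for 5.37% of tested genes, and the difference was 0.69 ± 0.21 on the log2 scale (SE, edgeR adjusted p = 0.114). E2f6, a repressor of the family that lacks the pocket-binding domain, was at 15.1, 13.0, 16.9 and 15.5 CPM in double and 7.89, 12.4, 10.7 and 9.52 CPM in single colored replicates 1 to 4. Every single colored library lay below every double colored one, as for 3.76% of tested genes, and the difference was −0.57 ± 0.17 on the log2 scale (SE, edgeR adjusted p = 0.0890). With the replicate number as a block, 7.53% of all tested genes were called (4.97% higher, 2.57% lower), and E2f3 was higher (0.71, edgeR adjusted p = 0.0457) and E2f6 lower (−0.59, edgeR adjusted p = 0.0251) in single colored cells. E2f6 was also called by DESeq2 (adjusted p = 0.0452). Tfdp1, a dimer partner of E2Fs, was at 0.43 on the log2 scale (edgeR adjusted p = 0.389).

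E2F target genes, which unphosphorylated pocket proteins keep silent, had 0 of 13 tested genes called. Their log2 fold changes were positive in 10 and negative in 3, with a median of 0.56. At an unadjusted p under 0.05, 5 of the 13 were higher, where 9.02% of all tested genes were. Mcm6, a subunit of the replicative helicase, was at 2.41 ± 0.444 CPM in double and 4.32 ± 1.14 CPM in single colored libraries (SD, n = 4 each) without overlap, or 0.84 on the log2 scale (edgeR adjusted p = 0.0944). Ccna2, the cyclin of S phase and G2, was at 2.11 ± 1.03 CPM and 4.21 ± 0.882 CPM (SD, n = 4 each), or 0.99 on the log2 scale (edgeR adjusted p = 0.145). Mcm5, another helicase subunit, was at 0.527 ± 0.424 CPM and 1.61 ± 0.217 CPM (SD, n = 4 each), or 1.60 on the log2 scale (edgeR adjusted p = 0.146). Mcm6 and Mcm5 had every single colored library above every double colored one, as 5.37% of all tested genes had. With the replicate block 4 of the 13 genes were higher in single colored cells, where 4.97% of all tested genes were. These were Mcm6 (edgeR adjusted p = 0.0285), Ccna2 (0.0131), Mcm5 (0.0313) and Rrm2 (0.0184), a subunit of ribonucleotide reductase. The immune marker sums differ between the same groups, and the part of other cells in these values cannot be told apart from the groups. The mean log2 level of the immune markers did not overlap, at 1.02 to 1.37 in double and 2.01 to 2.60 in single colored libraries.

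**Figure D4:**
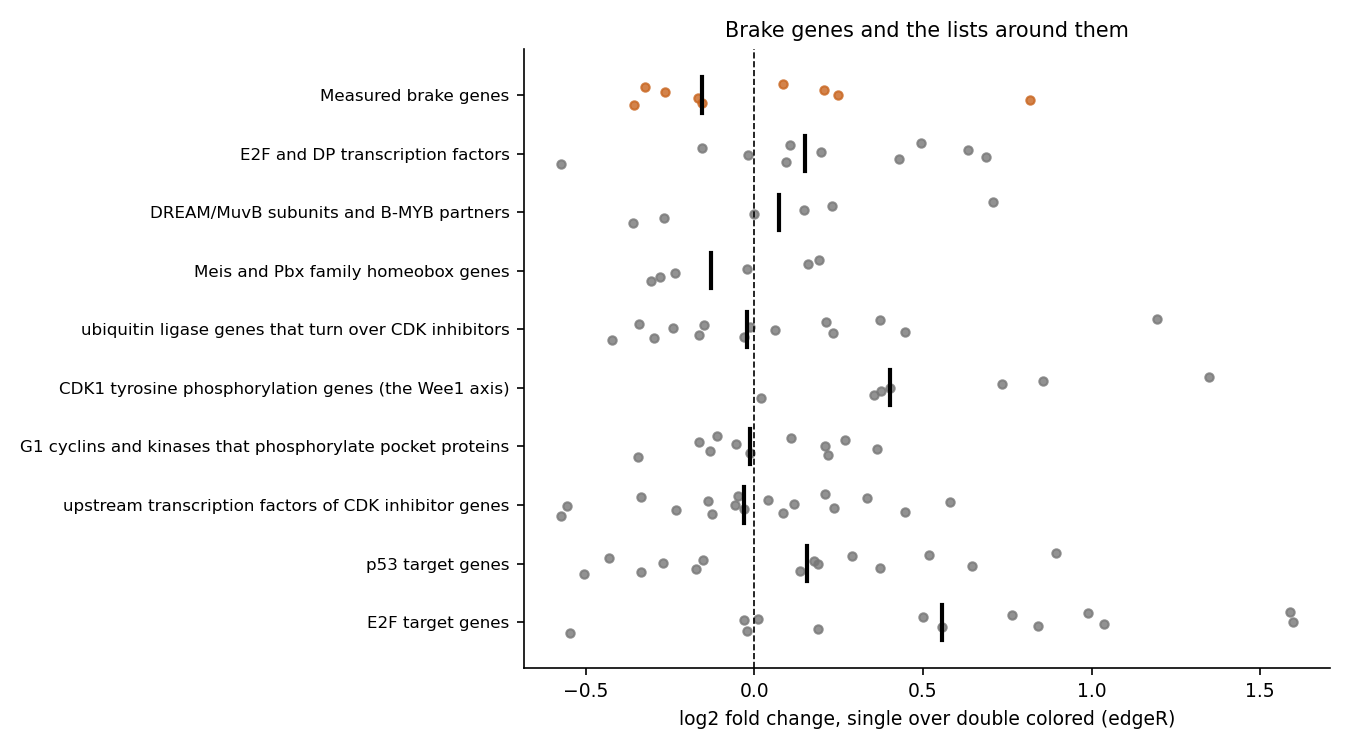
Log2 fold change of single over double colored cells for each tested gene (points) of the brake genes (orange) and of 9 lists around them (grey), with the median of each list as a black bar. The brake genes have a median of −0.16, the E2F targets 0.56 and the genes around the CDK1 tyrosine switch 0.40, and no point is called in the edgeR fit plotted here, which has no replicate block.

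Subunits of the DREAM and MuvB complexes, through which Rbl1 and Rbl2 repress cell cycle genes, with their partners, had 0 of 6 tested genes called and a median log2 fold change of 0.07. Foxm1, a mitotic transcription factor that binds MuvB, was at 0.71 (edgeR adjusted p = 0.318), Lin37 at −0.36 (0.641) and Rbbp4 at 0.23 (0.715). G1 cyclins and the kinases that phosphorylate pocket proteins had 0 of 11 called and a median of −0.01, with Ccnd2 at 0.27 (edgeR adjusted p = 0.399), Cdk6 at 0.36 (0.50) and Ccnd3 at −0.35 (0.712). Ccnd2, a D-type cyclin, was the single gene of these 11 without overlap, where 9.14% of all tested genes had none. It was at 18.6 to 25.3 CPM in double and 25.5 to 30.3 CPM in single colored libraries.

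Genes of the ubiquitin ligases that degrade CDK inhibitors had 0 of 14 called and a median log2 fold change of −0.02. At an unadjusted p under 0.05, 1 was higher and 1 lower, where 9.02% and 6.1% of all tested genes were. Fbxw7, the substrate receptor for cyclin E and Myc, was at 21.9 ± 2.00 CPM in double and 16.3 ± 2.41 CPM in single colored libraries (SD, n = 4 each) without overlap. Its log2 fold change was −0.42 (edgeR adjusted p = 0.169), and −0.43 with the replicate block (edgeR adjusted p = 0.0447). Dtl, the receptor that targets p21 during S phase, was at 0.624 ± 0.377 CPM and 1.43 ± 0.868 CPM (SD, n = 4 each), or 1.19 on the log2 scale (edgeR adjusted p = 0.272). Without single colored replicate 1 it was at 0.66. Skp1a, the adaptor of SCF ligases, was at −0.34 (edgeR adjusted p = 0.344). Of the 14 genes, 2 (Fbxw7 and Skp1a) were lower without overlap and 1 was higher, where 3.76% and 5.37% of all tested genes were.

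Transcription factors upstream of the CDK inhibitor genes had 0 of 17 called, a median of −0.03, and 3 higher and 2 lower at an unadjusted p under 0.05. That threshold was passed by 9.02% of all tested genes with a rise in single colored cells and by 6.1% with a fall. Klf4, an activator of Cdkn1a, was at 26.0 ± 6.20 CPM in double and 17.7 ± 4.70 CPM in single colored libraries (SD, n = 4 each), or −0.56 on the log2 scale (edgeR adjusted p = 0.195). With the replicate block it was lower, at −0.55 (edgeR adjusted p = 0.0229). Trp53, the gene of p53, was at 6.43 ± 0.457 CPM and 8.77 ± 1.29 CPM (SD, n = 4 each) without overlap, or 0.45 on the log2 scale (edgeR adjusted p = 0.222). It was the single gene of the 17 without overlap, where 9.14% of all tested genes had none. Tbx5, a cardiac transcription factor, was at −0.57 (edgeR adjusted p = 0.224). The other p53 targets beside Cdkn1a had 0 of 14 called and a median of 0.16. Btg2, an antiproliferative p53 target, was at 55.8 ± 10.6 CPM in double and 39.3 ± 8.92 CPM in single colored libraries (SD, n = 4 each), or −0.50 on the log2 scale (edgeR adjusted p = 0.201). With the block it was lower, at −0.51 (edgeR adjusted p = 0.0134). Zmat3 was at 0.37 (edgeR adjusted p = 0.297). Ccng1, the most abundant of these targets named here at 307 ± 17.4 and 243 ± 49.8 CPM (SD, n = 4 each), was at −0.34 (edgeR adjusted p = 0.405). Every single colored library of Ccng1 (170 to 282 CPM) lay below every double colored one (290 to 330 CPM), as for 3.76% of tested genes. Ccng1 was the single gene of the 14 without overlap. Cdkn1a and these targets therefore had log2 fold changes of both signs.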

How the data were processed

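RNA was measured in 8 libraries, grouped by their titles. Per the submitters' processing notes, STAR 2.5.2b, featureCounts and Subread were used with the mouse build mm9. The deposited values are raw read counts per gene, whole numbers rather than estimated counts or expected counts, per the file headers; no rounding was needed. Beside them stand CPM recalculated by the authors and, with opposite sign, the authors' deposited log2 fold changes with p-values and FDR values, whose test was not given in the sources used here. Among these, 0 of 15711 genes have an FDR under 0.05, the smallest being 0.185. GENCODE vM21 supplied a symbol for 32919 identifiers and none for 5072.

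Counts were tested with edgeR 4.0.16 under R 4.3.3: filterByExpr with a minimum count of 10, TMM factors (0.953 to 1.44 in single, 0.733 to 0.972 in double colored libraries), the robust quasi-likelihood F-test without a block, and Benjamini-Hochberg adjustment at 0.05 over 12466 genes. It was tested on simulated counts. CPM are TMM-scaled totals that include mitochondrial reads. Exon overlaps used GenomicRanges 1.54.1. Alternatives were DESeq2 1.42.0, limma 3.58.1 (voom with quality weights, and log2 of the deposited CPM with a pseudocount of 1), other scalings and filters, the replicate block, a marker covariate, and libraries or pairs left out.

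The members and lists were chosen with earlier results of these data known, and the p53-like motif after its match had been seen. Named were all members, in each list the genes called and otherwise up to 3 with the smallest p, and for Cdkn1a, Rb1 and Meis1 the 3 genes of most similar pattern. E2F targets named under the block, the lack of overlap of Ccnd2 and Ccng1 and the likeness between members were chosen after values were seen. Same-numbered libraries deviated together from their group means (correlations 0.167 to 0.299, others at most 0.128), although no label explains the numbers. With each pair above 0.1, a fit with the replicate number as a block was run as an alternative. The main p-values, adjusted p-values and intervals do not use the pairing. Without the block 309 genes were called, and with it 939. One gene of the lists around the members is not reported here.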

Additional observations from a re-analysis of the deposited data

Results flagged for a closer look

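For the 9 measured genes and the 3 ratios, 24 groups of 4 libraries were checked for a library standing far from the other 3 (by Dixon's test of the gap to the nearest library), which chance flags in about 1 of 20 groups. There were 4 such cases. Cdkn1a stood high in double colored replicate 4, at 19.1 CPM against 14.5 to 15.2 CPM in the other 3. Cdkn1b stood high in single colored replicate 1, at 4.95 CPM against 3.69 to 3.77 CPM. Rbl2 stood low in double colored replicate 1, at 7.16 CPM against 13.4 to 14.4 CPM, and in the same library the log2 ratio of Rbl1 to Rbl2 stood high, at −1.42 against −3.57 to −3.26. The last 2 share the Rbl2 reads and are not independent.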

How the results depend on the processing

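Of 193 values of the 9 genes' log2 fold changes under alternatives, 173 kept their direction and their side of the threshold, 2 passed the threshold and 18 changed sign. Counts of calls moved more. Against 309 genes called, DESeq2 called 556, scaling by totals alone 1390 (99.9% of them higher, with the median of all genes shifted by 0.48), no filter 805, a filter at 5 CPM 97, limma on deposited CPM 564 (median shifted by 0.19), the replicate block 939 (65.9% higher) and the marker covariate 0. Leaving out single libraries or pairs gave 94 to 304 calls. Brake genes called were 2 with totals alone (Cdkn1a at 0.74, adjusted p = 0.0485, and Rbl1 at 1.34, adjusted p = 0.0197, both edgeR) and 0 under every other alternative run, with 4 of them left to test by the filter at 5 CPM. Genes called in the lists around them were 2 with DESeq2, 18 with totals alone, 4 without a filter, 4 on deposited CPM and 9 with the replicate block. The 9 lists with tested genes held 6 to 17 each in the main fit. Over all genes, DESeq2 called 556 of 12466, totals alone 1390 of 12466 and no filter 805 of 23680. On deposited CPM 564 of 15711 were called, and with the replicate block 939 of 12466 (7.53%). The replicate block changed no call of a brake gene. Exon lengths of GENCODE vM21 moved Cdkn1a to 4.92 and Wee1 to 0.360 CPM per kb.

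Signs turned as follows, in log2 fold change. With totals alone: Cdkn1b 0.37, Cdkn1c 0.18, Cdkn2c 0.29, Meis1 0.093, Wee1 0.15, Lin37 0.13, Meis2 0.22, Pknox2 0.25, Fbxw7 0.059, Skp1a 0.12, Ccnd3 0.10 and Ccng1 0.12, all below the shifted median. On deposited CPM: Cdkn1b 0.070 and Cdkn2c 0.046. With the marker covariate, which separates the groups without overlap: Rb1 −0.13, Rbl1 −0.22, Rbl2 −0.055, Wee1 0.11, Lin37 0.29, Dtl −1.83, Skp1a 0.56, Chek1 −1.22, Cdk6 −0.96, Trp53 −0.031, Tbx5 0.30, Btg2 0.56 and Ccng1 0.49. With a library or a pair left out, Cdkn1b ran from −0.29 to 0.017 (positive without pair 2) and Cdkn1c from −0.53 to 0.043 (positive without pair 3). Cdkn2c ran from −0.53 to 0.38 (positive without either or both libraries of pair 3). Rbl2 ran from −0.17 to 0.18 (negative without pair 1 or its double colored library). The genes of the lists given next moved but kept their sign when a single library was left out. Without single colored replicate 1, Lin37 was at −0.20, Skp1a at −0.21, Cdk6 at 0.21 and Ccng1 at −0.21. Without single colored replicate 3, Pknox2 was at −0.11 and Pbx2 at 0.064. Rbbp4 was at 0.078 without double colored replicate 2, Tbx5 at −0.37 and Ccnd2 at 0.18 without double colored replicate 3, Meis2 at −0.16 without double colored replicate 4, and Ccnd3 at −0.58 without single colored replicate 2. The cause was not tested. Cdkn2c, Cdkn1c, Wee1 and Rbl1 rest on few reads, and depth limits what could be detected for them.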
